A study of Mus musculus with 24 samples.

Results

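The genes described here are 10 genes that belong to or respond to glucocorticoid signalling, found by their symbols among the 49452 genes of the deposited FPKM table. They are the glucocorticoid receptor gene *Nr3c1*, the glucocorticoid-activating enzyme gene *Hsd11b1*, and 8 genes known as targets of the receptor, *Fkbp5*, *Tsc22d3*, *Zbtb16*, *Sgk1*, *Per1*, *Klf9*, *Mt1* and *Mt2*. All 10 had a row in the table, and their levels were followed in all 8 groups. FPKM are fragment numbers corrected for transcript length and library size, so that levels can be set side by side between genes.

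RNA was sequenced from primary (1°) precursor cells of the stromal-vascular fraction of interscapular brown adipose tissue (BAT) and of perigonadal visceral white adipose tissue (vWAT) of male C57BL/6 mice 6 to 8 weeks old. BAT of several mice was pooled where cells were few. The cells received by nucleofection either a siRNA against the long noncoding RNA *H19* (siH19) or a non-targeting control siRNA (siCtrl). They were collected before differentiation (d0) or at day 3 of it (d3). Each of the 8 groups of depot, siRNA and day holds 3 libraries, 24 in all. The names of the control libraries carry siKO, although their siRNA is given as a non-targeting control, and the siH19 libraries carry a single siRNA name, so that 1 siRNA against *H19* was compared. All cells grew in medium with fetal calf serum, whose share the labels give as 20% and the study's methods give differently. For differentiation an induction medium is named for 48 h, with 0.005% dexamethasone, a synthetic glucocorticoid, beside insulin, rosiglitazone and IBMX, an inhibitor of cAMP breakdown. The protocol also names indomethacin and the thyroid hormone T3 for BAT cells. Its wording leaves unclear whether BAT cells received every other agent, dexamethasone included. After induction, medium with rosiglitazone (vWAT) or T3 (BAT) was given, in which no dexamethasone is named. The d3 cells thus differed from the d0 cells in exposure to the agents of their media and in the degree of differentiation. The agents include dexamethasone for vWAT cells, whereas for BAT cells this is uncertain. The parts of dexamethasone, of the other agents and of differentiation cannot be told apart. At d3 the depots also differed in medium, so depot and medium cannot be told apart there.

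Glucocorticoids enter cells and bind the glucocorticoid receptor (GR), a transcription factor held in the cytoplasm by heat shock protein chaperones until the hormone arrives. The enzyme encoded by *Hsd11b1* regenerates active glucocorticoid from its inert keto form inside the cell, and is known for raising glucocorticoid action in adipose tissue. The ligand-bound receptor enters the nucleus, binds glucocorticoid response elements (GRE) and switches on genes such as *Fkbp5* and *Tsc22d3*, whereas it dampens many inflammatory genes. Glucocorticoids are part of the usual cocktail that starts adipocyte differentiation in culture.

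Sequences around start sites of *Sgk1*, *Mt1* and *Mt2* are shown, because *Sgk1* and *Mt2* were the members called with siH19. *Mt1* is the neighbour and paralog of *Mt2*. Windows from 250 bases before to 50 bases after each start site were taken from RefSeq (GRCm38.p6), in which 8 of the 10 genes had an entry, with 16 windows in all. Each window was searched on both strands for the GRE core (G, any base, ACA, any 3 bases, TGT, any base, C), for the core of metal response elements (MRE, TGCACNC or TGCGCNC), the sites of the zinc-sensing factor MTF1, and for the cAMP response element TGACGTCA. The GRE core was present in 1 of the 6 *Sgk1* windows, from 188 to 176 bases before that start site, and in *Mt1*, from 94 to 82 bases before it. It stood in 0.475% of all 32851 promoter windows of the same length. *Mt2* held no GRE core but 4 MRE cores, and *Mt1* held 3 MRE cores. A number of 4 or more, a limit equal to the *Mt2* count, stood in 0.517% of windows. The share of windows with 3 or more was not taken. The 3 windows are given on the plus strand, with matches in capitals (the GRE core in *Sgk1*, the GRE core followed by 3 MRE cores in *Mt1*, and 4 MRE cores in *Mt2*, the last 2 of them reading on the minus strand).
Sgk1, chr10:21993640-21993939: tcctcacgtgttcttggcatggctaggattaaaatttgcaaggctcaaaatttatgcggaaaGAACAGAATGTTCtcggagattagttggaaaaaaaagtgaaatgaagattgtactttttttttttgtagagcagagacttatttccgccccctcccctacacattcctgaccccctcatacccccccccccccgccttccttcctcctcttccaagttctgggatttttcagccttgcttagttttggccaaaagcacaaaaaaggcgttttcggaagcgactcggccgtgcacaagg
Mt1, chr8:94178839-94179138: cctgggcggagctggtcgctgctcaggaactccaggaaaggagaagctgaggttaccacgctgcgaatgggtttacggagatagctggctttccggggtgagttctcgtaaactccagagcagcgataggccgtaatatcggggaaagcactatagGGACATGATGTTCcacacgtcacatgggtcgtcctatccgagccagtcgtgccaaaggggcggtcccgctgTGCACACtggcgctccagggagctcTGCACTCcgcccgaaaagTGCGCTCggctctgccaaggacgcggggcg
Mt2, chr8:94172368-94172667: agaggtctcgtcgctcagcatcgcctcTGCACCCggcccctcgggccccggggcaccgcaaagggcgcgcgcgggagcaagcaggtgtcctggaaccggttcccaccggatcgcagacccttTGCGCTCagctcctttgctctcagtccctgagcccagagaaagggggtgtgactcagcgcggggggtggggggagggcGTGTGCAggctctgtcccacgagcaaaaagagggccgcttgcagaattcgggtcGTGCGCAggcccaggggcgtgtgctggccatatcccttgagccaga

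At least 1 MRE core stood in 25.7% of all windows, and single matches were also found in *Hsd11b1*, in *Per1* and in another *Sgk1* window. The windows of *Fkbp5*, *Tsc22d3* and *Klf9* held none of the motifs, and the cAMP response element, present in 1.79% of all windows, was found in none of the 16. The match is a description of these letters, and FPKM are given per gene, so that the use of the *Sgk1* start sites was not measured. The shares are per window, and *Sgk1* had 6 windows. Whether these motifs take part in the siH19 differences was not tested.

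The knockdown was seen in every setting. *H19* stood at 3.35% of its siCtrl mean in BAT d0, at 15.3% in BAT d3, at 10.3% in vWAT d0 and at 6.15% in vWAT d3. Each library had 12311 to 13125 genes at an FPKM of 1 or more, and read counts are not known, since the values are FPKM. The relative depth read from low values was 0.84 to 1.00 in the BAT libraries and 1.03 to 1.19 in the vWAT libraries. Library names differ by depot as well, so depot and library series cannot be told apart. Adipocyte markers were present in every group and summed to 1227 to 3541 FPKM at d0 and to 17579 to 35587 FPKM at d3, and the endothelial markers summed to 3.51 to 15.5 FPKM in all libraries. Nothing in the sources says that the 3 libraries of a group came from separate mice or cultures, so p-values measure the spread between these libraries. In such bulk samples, fewer cells of a type and less RNA per cell cannot be told apart.

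**Figure D1:**
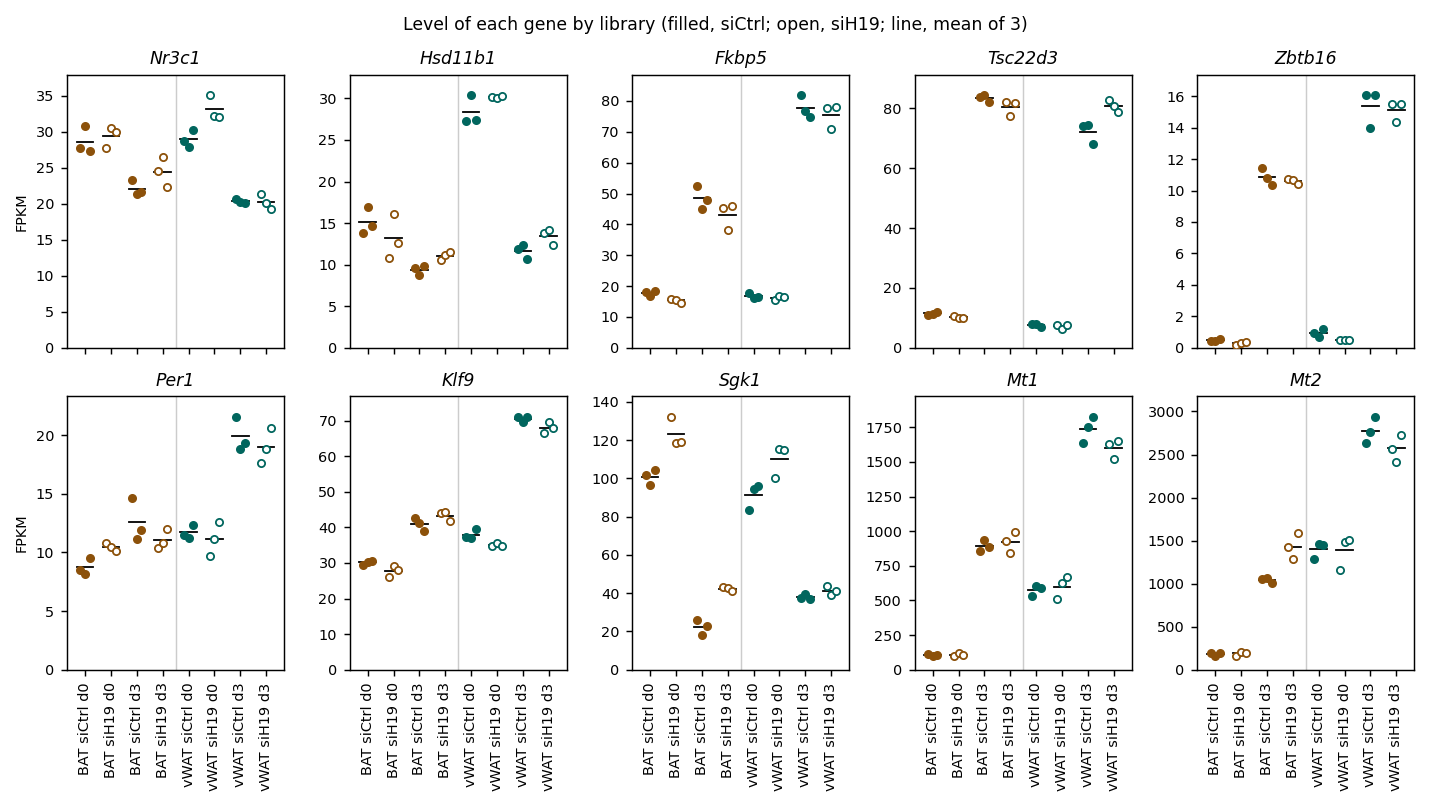
FPKM (linear axis) of the 10 genes in each library, by depot, siRNA and day, with filled points for siCtrl, open points for siH19 and a line at the mean of the 3 libraries. *Tsc22d3* lay between 6.26 and 12.1 FPKM in all d0 libraries and between 67.9 and 84.5 FPKM in all d3 libraries, while *Sgk1* lay lowest in BAT siCtrl d3.

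The first comparison asked how the genes differed between d3 and d0 cells. Of the 10 genes, 9 were called in BAT siCtrl cells, 7 of them higher and 2 lower at d3. A gene was called at a limma Benjamini-Hochberg adjusted p under 0.05, adjusted over all genes tested, and a difference of at least 1.3-fold. By this rule 65.2% of all 13001 genes tested were called, 29.9% higher and 35.3% lower. In vWAT siCtrl cells all 10 were called, 7 higher and 3 lower, against 50.3% of all genes, 26.3% higher and 23.9% lower. In BAT siH19 cells 6 were called higher and 1 lower, against 60.6% of all genes (30.8% higher and 29.8% lower), and in vWAT siH19 cells 7 higher and 3 lower, against 52.7% (28.2% higher and 24.5% lower). The median of the 10 differences on the log2(FPKM + 1) scale was 0.93 in BAT siCtrl and 0.93 in vWAT siCtrl, and the median of all genes tested was -0.10 and 0.01.

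The receptor gene *Nr3c1* (chr18:39410545-39491301, minus strand) read 27.7, 30.9 and 27.4 FPKM in the 3 BAT siCtrl d0 libraries and 23.2, 21.3 and 21.7 FPKM at d3. In vWAT siCtrl it read 28.8, 27.9 and 30.2 FPKM at d0 and 20.7, 20.3 and 20.2 FPKM at d3. All d3 libraries lay below all d0 libraries of their depot. The fitted difference was -0.48 (SE 0.0498, adjusted p 0.000177) in vWAT, where it was called. In BAT it was -0.36 (SE 0.0657, adjusted p 0.00212), which passed the p threshold but stayed under 1.3-fold, and it reached 1.3-fold when BAT siCtrl d0 replicate 1 or 3 or d3 replicate 1 was left out (-0.38, -0.39 and -0.40). *Nr3c1* was the least variable of the 10 genes, with a ratio of 1.64 between its highest and lowest group mean, 33.2 FPKM in vWAT siH19 d0 and 20.2 FPKM in vWAT siH19 d3. In the order of group means, vWAT siH19 d0 stood first, followed by BAT siH19 d0, vWAT siCtrl d0 and BAT siCtrl d0, whose ranges overlapped from one to the next, and the 4 d3 groups came last.

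*Hsd11b1* (chr1:193221634-193264075, minus strand) read 13.8, 16.9 and 14.6 FPKM in BAT siCtrl d0 and 9.62, 8.73 and 9.86 FPKM at d3. In vWAT siCtrl the d0 values were 27.3, 30.4 and 27.5 FPKM and the d3 values 11.9, 12.4 and 10.7 FPKM. The siCtrl d3 libraries lay below the siCtrl d0 libraries in both depots, and the fall was larger in vWAT. The fitted difference was -1.22 (SE 0.0749, adjusted p 1.67e-05) in vWAT and -0.63 (SE 0.091, adjusted p 0.000676) in BAT, and the test of the difference between depots (the interaction of depot and day) gave 0.59 (SE 0.118, adjusted p 0.00165). In this interaction, called at an adjusted p under 0.05, 7 of the 10 genes passed, against 53% of all genes. The depots differed in medium at d3, so depot and medium cannot be told apart in any of these interactions. With siH19 in BAT, *Hsd11b1* read 10.8, 16.1 and 12.7 FPKM at d0 and 10.6, 11.2 and 11.5 FPKM at d3. These groups overlapped, and *Hsd11b1* was not called there. The direct test of whether this change differed between siH19 and siCtrl (the interaction of day and siRNA) did not call *Hsd11b1* in BAT either. In order of means, both vWAT d0 groups (30.2 and 28.4 FPKM) stood above all other groups, and the next 5 groups, from BAT siCtrl d0 (15.1 FPKM) to BAT siH19 d3 (11.1 FPKM), overlapped from one to the next. *Lamb3* lies on the opposite strand of the *Hsd11b1* locus with at most 3.23 FPKM, and whether strand was used in counting is not given in the sources used here.

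Among the targets, *Fkbp5*, *Tsc22d3* and *Zbtb16* rose at d3 in all 4 settings. *Fkbp5* (chr17:28399095-28517524, minus strand) encodes a co-chaperone that lowers hormone binding by the receptor, a feedback on the pathway. It read 18.1, 16.7 and 18.5 FPKM in BAT siCtrl d0 and 52.5, 45.1 and 47.8 FPKM at d3. The vWAT siCtrl libraries read 17.9, 16.2 and 16.6 FPKM at d0 and 82.0, 76.6 and 74.8 FPKM at d3. The d0 levels of the depots overlapped, and at d3 every vWAT library lay above every BAT library. The ratio of mean FPKM was 2.72 in BAT and 4.60 in vWAT, and the fitted differences were 1.39 (SE 0.072, adjusted p 3.52e-06) and 2.14 (SE 0.0576, adjusted p 5.71e-07). The difference between depots was -0.74 (SE 0.0927, adjusted p 5.54e-05).

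*Tsc22d3* (chrX:140539528-140600659, minus strand) encodes GILZ, an anti-inflammatory mediator of glucocorticoids. Its FPKM were 11.1, 11.2 and 12.1 in BAT siCtrl d0 and 83.7, 84.5 and 82.0 at d3. In vWAT siCtrl they were 8.11, 8.07 and 6.93 at d0 and 74.2, 74.5 and 67.9 at d3. The gap between days was many times the spread of the libraries, with ratios of mean FPKM of 7.26 in BAT and 9.38 in vWAT and fitted differences of 2.76 (SE 0.0498, adjusted p 4.99e-08) and 3.07 (SE 0.0746, adjusted p 3.87e-07). The difference between depots was -0.32 (SE 0.0884, adjusted p 0.0114), and -0.18 (adjusted p 0.0983) with trimmed-mean scaling of the libraries, which ended this call. With the same scaling *Nr3c1* was called in this interaction (0.24, adjusted p 0.0232). All 4 d3 groups ranked above all 4 d0 groups, with BAT siCtrl, vWAT siH19 and BAT siH19 at d3 overlapping at means of 83.4, 80.7 and 80.5 FPKM.

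*Zbtb16* (chr9:48654297-48836222, minus strand) encodes the zinc finger transcription factor PLZF and had the widest range of the 10 genes, with a ratio of 51.6 between its highest and lowest group mean. It read 0.426, 0.440 and 0.563 FPKM in BAT siCtrl d0 and 11.4, 10.8 and 10.4 FPKM at d3. Its values in vWAT siCtrl were 0.963, 0.687 and 1.21 FPKM at d0 and 16.1, 13.9 and 16.1 FPKM at d3. The d0 values were near or under 1 FPKM, so that *Zbtb16* entered only the comparisons that include d3 libraries. On the log2(FPKM + 1) scale the difference was 3.01 (SE 0.0815, adjusted p 1.82e-07) in BAT and 3.07 (SE 0.121, adjusted p 2.43e-06) in vWAT, values that understate the change of a gene this low at d0, since the ratios of mean FPKM were 22.8 and 16.1. The difference between depots was -0.07 (95% interval -0.39 to 0.26).

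**Figure D2:**
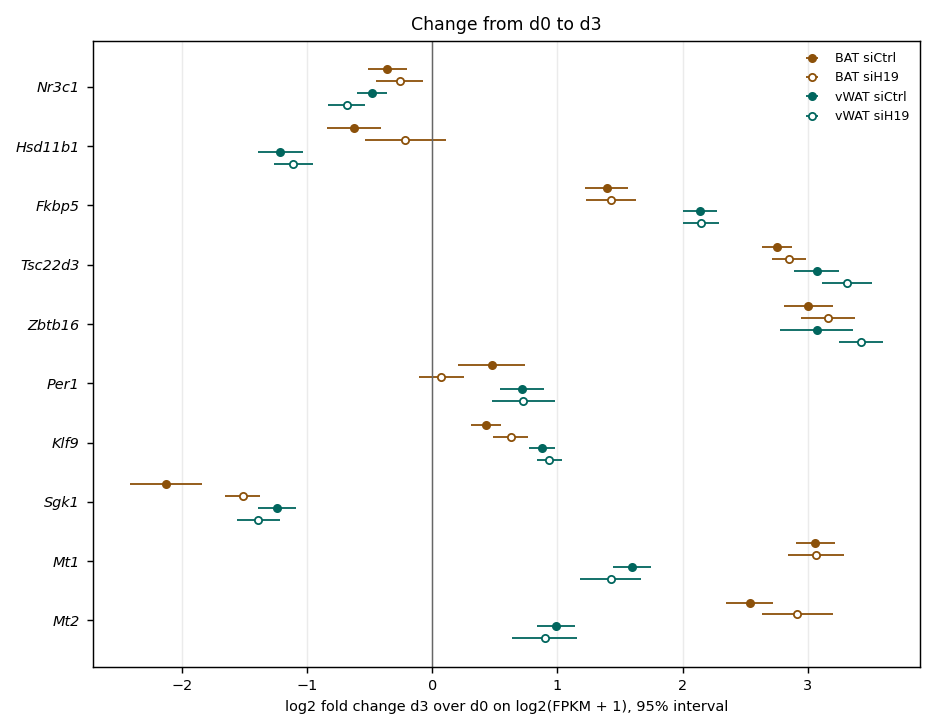
Difference between d3 and d0 on the log2(FPKM + 1) scale for the 10 genes in BAT and vWAT with siCtrl or siH19, with points for the fitted value of 6 libraries and bars for the 95% interval. *Tsc22d3* and *Zbtb16* lay between 2.76 and 3.43 in all 4 settings, *Mt1* and *Mt2* were higher in BAT (2.54 to 3.07) than in vWAT (0.90 to 1.60), and *Sgk1*, *Hsd11b1* and *Nr3c1* lay below 0.

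*Per1* and *Klf9* moved less. *Per1* (chr11:69095217-69109960, plus strand) encodes a repressor of the circadian clock and read 8.50, 8.19 and 9.52 FPKM in BAT siCtrl d0 and 14.7, 11.1 and 11.9 FPKM at d3. The vWAT siCtrl values were 11.5, 11.2 and 12.4 FPKM at d0 and 21.6, 18.8 and 19.3 FPKM at d3. It was called higher at d3 in both depots, with 0.47 (SE 0.113, adjusted p 0.00745) in BAT and 0.72 (SE 0.0722, adjusted p 0.000161) in vWAT. Without BAT siCtrl d3 replicate 1, the highest library of its group, the BAT value was 0.36 (adjusted p 0.0129) and under 1.3-fold. In BAT siH19 cells the difference was 0.07 (95% interval -0.11 to 0.25, adjusted p 0.425), and the groups overlapped. The interaction of day and siRNA in BAT did not call *Per1* (limma adjusted p 0.0535 to 0.185 over the alternative settings).

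*Klf9* (chr19:23141226-23166911, plus strand) encodes a Krüppel-like transcription factor. It read 29.5, 30.3 and 30.7 FPKM in BAT siCtrl d0 and 42.6, 41.2 and 39.0 FPKM at d3. In vWAT siCtrl it read 37.2, 37.0 and 39.5 FPKM at d0 and 70.9, 69.5 and 71.1 FPKM at d3. The groups did not overlap by day or by depot, and the rise was larger in vWAT (0.88, SE 0.0428, adjusted p 5.96e-06) than in BAT (0.43, SE 0.0496, adjusted p 0.000218), with a tested difference between depots of -0.45 (SE 0.0594, adjusted p 8.4e-05).

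*Sgk1* (chr10:21882184-21999903, plus strand), which encodes a kinase that regulates ion transport and is known as an acute target of glucocorticoids and of other stimuli, ran the other way. It read 102, 96.7 and 104 FPKM in BAT siCtrl d0 and 26.0, 18.4 and 23.1 FPKM at d3. The vWAT siCtrl libraries read 83.6, 94.3 and 96.3 FPKM at d0 and 37.5, 39.6 and 36.9 FPKM at d3. It fell in both depots, with a difference of -2.13 (SE 0.119, adjusted p 5.18e-06) in BAT and of -1.24 (SE 0.0643, adjusted p 7.64e-06) in vWAT, and the tested difference between depots was -0.89 (SE 0.146, adjusted p 0.000426). The 4 d0 groups, from 83.6 to 132 FPKM over all libraries, lay above all d3 libraries.

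*Mt1* (chr8:94179082-94180327, plus strand) and *Mt2* (chr8:94172664-94173568, plus strand) encode metallothioneins, small cysteine-rich proteins that bind zinc and copper, and are known to respond to metals as well as to glucocorticoids. *Mt1* read 113, 97.8 and 108 FPKM in BAT siCtrl d0 and 855, 939.6 and 888 FPKM at d3. Its values in vWAT siCtrl were 529, 607 and 589.7 FPKM at d0 and 1640.1, 1753 and 1827 FPKM at d3. The rise was 3.06 (SE 0.0638, adjusted p 7.37e-08) in BAT and 1.60 (SE 0.0643, adjusted p 2.67e-06) in vWAT, which began from a higher level.

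*Mt2* read 191, 157 and 189.5 FPKM in BAT siCtrl d0 and 1054, 1063 and 1010.0 FPKM at d3. The vWAT siCtrl values were 1287, 1459.9 and 1452 FPKM at d0 and 2633, 2756 and 2940.2 FPKM at d3. Every vWAT d0 library thus lay above every BAT siCtrl d3 library for *Mt2*, although *Mt2* rose in BAT by 2.54 (SE 0.0785, adjusted p 3.15e-07) and in vWAT by 0.99 (SE 0.0638, adjusted p 2.06e-05). The tested differences between depots were 1.47 (SE 0.0967, adjusted p 4.39e-07) for *Mt1* and 1.55 (SE 0.109, adjusted p 7.28e-07) for *Mt2*, the largest among the 10 genes. The predicted gene *Gm45774* lies antisense to *Mt2* with at most 2.48 FPKM.

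Other genes of the pathway were followed through lists, whose counts are read against the shares of all genes. These were 29.9% higher and 35.3% lower in BAT siCtrl, and 26.3% higher and 23.9% lower in vWAT siCtrl. The median difference of all genes tested was -0.10 in BAT siCtrl and 0.01 in vWAT siCtrl. Of 28 tested genes known to be induced by GR, 16 were called higher and 5 lower at d3 in BAT siCtrl, with a median difference of 0.71, and 14 higher and 8 lower in vWAT siCtrl, with a median of 0.41. The largest rise was that of the sulfotransferase gene *Sult1a1* in both depots (4.95 in BAT and 4.91 in vWAT). The largest falls were those of *Errfi1*, an inhibitor of the EGF receptor, in BAT (-2.92) and of the serum amyloid gene *Saa3* in vWAT (-1.26). Of the inflammatory genes known to be dampened by GR, 11 of 12 tested were called lower and 1 higher in BAT and 12 of 14 lower and 1 higher in vWAT. The prostaglandin synthase gene *Ptgs2* fell most in BAT (-4.81) and the cytokine gene *Il6* in vWAT (-5.93), whereas the protease gene *Mmp3* was higher in BAT (0.84) and the chemokine gene *Cxcl12* in vWAT (0.43). Adipocyte markers moved with these groups, with 7 of 7 called higher at d3 in both depots, and the precursor and fibroblast markers were called lower in 7 of 7 in BAT and in 4 of 7 (1 higher) in vWAT. Their part in the results was not tested.

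The counts of the other lists are read against the 65.2% of all genes called in BAT siCtrl and the 50.3% called in vWAT siCtrl. Of 14 receptor chaperones, 4 were called higher and 1 lower in BAT siCtrl and 1 higher and 7 lower in vWAT siCtrl, with *St13* the largest rise (1.14 and 0.60) and *Dnajb1* the largest fall (-0.62 and -1.55). Of 14 coregulators, 5 were higher and 4 lower in BAT and 4 higher and 3 lower in vWAT. *Hexim1*, an inhibitor of transcription elongation, rose most (1.41 and 1.10). Of the steroid receptors and steroid-metabolising enzymes, 2 of 5 tested were higher and 1 lower in BAT, and 3 of 10 higher and 2 lower in vWAT. These included the transporter gene *Abcb1b* (-0.99) in BAT, and the hydroxysteroid dehydrogenase genes *Akr1c14* (1.97) and *Akr1c18* (-3.24) in vWAT.

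Against the same shares of all genes, 2 of 11 paralogs of the 10 genes were higher and 3 lower in BAT (*Fkbp4* 0.76, *Tsc22d1* -1.62) and 3 of 12 higher and 3 lower in vWAT (*Klf13* 1.78, *Tsc22d2* -1.27). Of the 9 tested genes of the metal and oxidative response, 2 were higher and 3 lower in BAT (the heme oxygenase gene *Hmox1* 0.78, the zinc transporter gene *Slc39a14* -1.59), and 1 was higher and 5 lower in vWAT (the ferritin gene *Fth1* 0.93, the cystine transporter gene *Slc7a11* -2.47). Of the genes of the cAMP response, 7 of 14 were higher and 6 lower in BAT and 2 of 15 higher and 11 lower in vWAT. *Pck1*, encoding a gluconeogenic and glyceroneogenic enzyme, rose most (4.39 and 1.37) and the orphan receptor gene *Nr4a1* fell most (-3.41 and -3.50). Of the clock genes, 4 of 13 were higher and 3 lower in BAT and 4 of 15 higher and 6 lower in vWAT, with the transcription factor gene *Dbp* (1.28 and 1.36) and the repressor gene *Bhlhe40* (-1.48 and -2.81) at the ends. The siH19 comparisons of d3 with d0 gave the same largest rise and fall for the GR-induced genes in vWAT (*Sult1a1* 5.26, *Saa3* -1.49, with 17 of 28 higher and 7 lower) and in BAT (*Sult1a1* 5.04, *Errfi1* -2.56, with 16 higher and 5 lower). Of all genes, 52.7% were called in vWAT siH19 and 60.6% in BAT siH19.

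The second comparison set BAT against vWAT in siCtrl cells. At d3 the cells of the depots also differed in medium, so depot and medium cannot be told apart there. At d0, 5 of 9 tested genes were called, 4 lower in BAT and 1 higher, against 31.2% of all genes (10.2% higher and 21% lower). At d3, 7 of 10 were called, all lower in BAT, against 48.6% of all genes (16.5% higher and 32.1% lower). The metallothioneins differed most. *Mt2* was lower in BAT, at -2.96 (SE 0.0893, adjusted p 2.14e-06) at d0 and at -1.41 (SE 0.0471, adjusted p 1.5e-06) at d3, and so was *Mt1*, at -2.42 (SE 0.0731) and -0.96 (SE 0.0531). At d0 *Hsd11b1* (-0.87, adjusted p 0.000304) and *Per1* (-0.38, adjusted p 0.0069) were also lower in BAT, while *Tsc22d3* was higher (0.52, adjusted p 0.00226). *Nr3c1* and *Fkbp5* overlapped between the depots at d0, with -0.02 (95% interval -0.17 to 0.14) and 0.07 (95% interval -0.08 to 0.23).

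At d3 *Klf9* (-0.77), *Sgk1* (-0.74), *Fkbp5* (-0.67), *Per1* (-0.63) and *Zbtb16* (-0.46) were also called lower in BAT, with adjusted p between 1.36e-05 and 0.00219. *Hsd11b1* (-0.28) and *Tsc22d3* (0.21) passed the p threshold but stayed under 1.3-fold. The median of all genes tested was itself -0.13 at d0 and -0.16 at d3, and trimmed-mean scaling, which brings it to -0.0068 and -0.0044, turned the genes called higher and lower from 1343 and 2753 to 1868 and 1917 at d0 and from 2162 and 4216 to 3037 and 3170 at d3. With that scaling *Per1* at d0 (-0.26, adjusted p 0.031) and *Zbtb16* at d3 (-0.30, adjusted p 0.0156) were no longer called, and *Tsc22d3* at d3 was called higher in BAT (0.38, adjusted p 0.000405). *Per1* at d0 also lost its call when BAT siCtrl d0 replicate 1 or 2 or vWAT siCtrl d0 replicate 3 was left out (-0.37, -0.34 and -0.35, all under 1.3-fold).

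**Figure D3:**
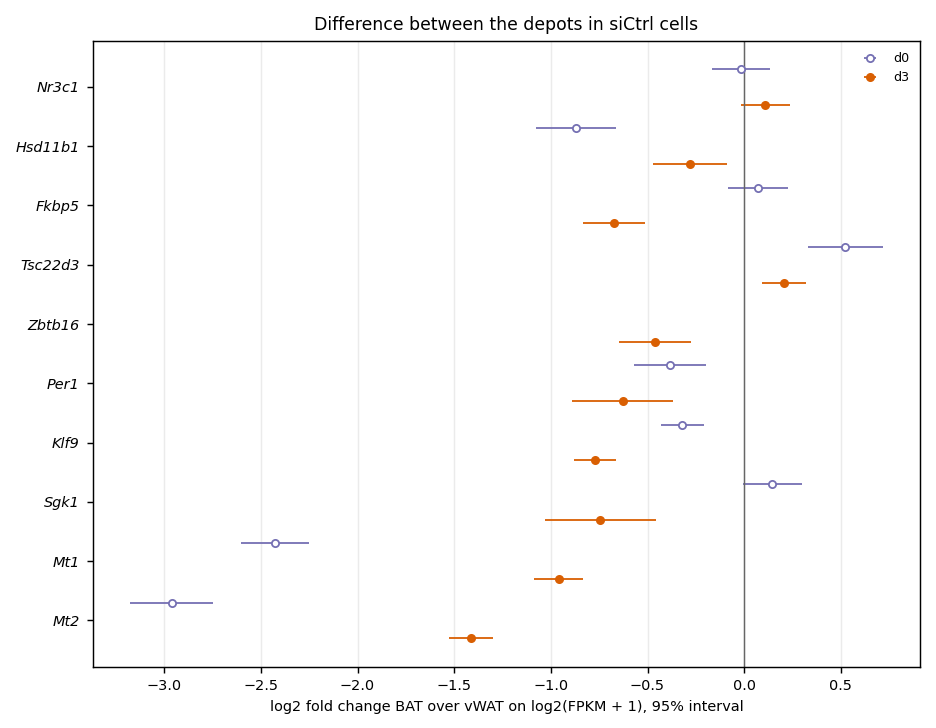
Difference between BAT and vWAT in siCtrl cells on the log2(FPKM + 1) scale, with open points for d0, filled points for d3 and bars for the 95% interval of a fit on 6 libraries. *Mt2* and *Mt1* lay furthest below 0 at both days (-2.96 and -2.42 at d0, -1.41 and -0.96 at d3), and *Tsc22d3* lay above 0 (0.52 and 0.21).

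The counts of the pathway lists stand against a lower call in 21% of all genes at d0 and in 32.1% at d3, and a higher call in 10.2% and 16.5%. Of the 28 GR-induced genes, 3 were called higher and 18 lower at d0 and 5 higher and 16 lower at d3, with *Saa3* at -4.36 and -4.94 and the phosphatidate phosphatase gene *Lpin1* at 1.45 (d3). Of the inflammatory genes 2 of 14 were higher and 10 lower at d0 (*Cxcl12* 0.93, *Mmp3* -3.42), and 11 of 11 lower at d3 (*Cxcl12* -2.97). With trimmed-mean scaling, 5 of the GR-induced genes were higher and 12 lower at d0 and 8 higher and 13 lower at d3, and 2 of the inflammatory genes were higher and 9 lower at d0 and 10 lower at d3. Of the 9 metal response genes, 6 were lower and none higher at d0 (*Hmox1* -2.40), and 3 were higher and 3 lower at d3 (*Hmox1* 0.75, *Slc39a14* -1.33). Chaperones were lower in 7 of 14 at d0 (*Dnaja1* -0.89) and higher in 2 of 14 at d3 (*Bag1* 0.46), and with trimmed-mean scaling lower in 2 at d0 and higher in 7 at d3. Coregulators were higher in 2 and lower in 2 of 14 at d0 (*Med14* 0.73, *Nr2f2* -1.60) and lower in 3 at d3 (*Nr2f2* -2.56), where the scaling gave 5 higher and 2 lower. Steroid receptors and enzymes were lower in 5 of 8 at d0 (*Akr1c18* -3.39) and in 8 of 9 at d3 (*Akr1c14* -2.23).

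Of the remaining lists, the called share of clock genes and of paralogs did not exceed that of all genes (31.2% at d0 and 48.6% at d3). The cAMP response genes were lower in 11 of 13 at d0 (the growth factor gene *Areg* -2.09), and higher in 6 and lower in 3 of 11 at d3 (*Pck1* 3.55, *Nr4a1* -1.57). Paralogs were higher in 1 and lower in 2 of 11 at d0 (*Klf13* 0.54, *Sgk3* -0.52) and higher in 1 and lower in 4 of 12 at d3 (*Sgk3* 0.42, *Tsc22d1* -1.42). Clock genes were lower in 2 of 14 at d0 (*Bhlhe40* -1.41), and higher in 2 and lower in 1 of 13 at d3 (*Nr1d1* 0.59, *Ciart* -0.44). Markers of other cells differed by depot at the same time. The 6 mesothelial markers were all lower in BAT at d0, with summed levels of 5.14 to 5.92 FPKM against 130 to 152 FPKM and with *Upk3b* and *Krt8* listed at 0 in BAT siCtrl d0. Macrophage markers were lower in 6 of 7, with 134 to 166 FPKM against 293 to 328 FPKM. Of the skeletal muscle markers 4 of 5 were higher in BAT and 1 lower (*Myh3* 3.95), and at d3 all 7 adipocyte and all 6 brown adipocyte markers were higher in BAT. The part of these cells in the levels of the 10 genes was not tested.

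The third comparison asked which of the genes differed between siH19 and siCtrl cells. In BAT d3, 2 of the 10 genes were called, *Sgk1* and *Mt2*, both higher with siH19, against 8.57% of all genes (6.39% higher). No member was called in the other settings. These tested 9 genes in BAT d0 (1.94% of all genes called), 9 in vWAT d0 (1.53%) and 10 in vWAT d3 (0.0305%, or 4 genes). Members with an unadjusted p under 0.05 in limma numbered 3 of 9 in BAT d0, against 2482 of 12651 genes tested. In BAT d3 they numbered 3 of 10, against 3913 of 12500. In vWAT they numbered 2 of 9 at d0, against 2303 of 13063, and 1 of 10 at d3, against 1315 of 13097. With trimmed-mean scaling, the genes called higher and lower went from 799 and 272 to 616 and 425 in BAT d3, from 78 and 167 to 97 and 134 in BAT d0, and from 43 and 157 to 62 and 130 in vWAT d0. The siCtrl d3 libraries of BAT enter both this comparison and the comparisons by day and depot, so the values of *Sgk1* and *Mt2* in them are not independent of each other.

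*Sgk1* read 26.0, 18.4 and 23.1 FPKM in BAT siCtrl d3 and 43.4, 42.9 and 40.9 FPKM in BAT siH19 d3. The lowest siH19 library stood above the highest siCtrl library, at a ratio of mean FPKM of 1.89, and the fitted difference was 0.90 (SE 0.119, 95% interval 0.61 to 1.18, adjusted p 0.0057). In vWAT d3 the siCtrl libraries read 37.5, 39.6 and 36.9 FPKM and the siH19 libraries 43.6, 39.3 and 40.9 FPKM, which overlapped, with a difference of 0.11 (95% interval -0.02 to 0.25). The test of the difference between depots gave 0.78 (SE 0.141, adjusted p 0.007). The *Sgk1* level in BAT siH19 d3 overlapped that in vWAT siH19 d3, and BAT siCtrl d3 stood apart, since the 9 libraries of the other 3 d3 groups lay between 36.9 and 43.6 FPKM.

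At d0 *Sgk1* also had its siH19 libraries above its siCtrl libraries in both depots. In BAT d0 the siH19 libraries read 132, 119 and 119 FPKM against 102, 96.7 and 104 FPKM, a difference of 0.29 (SE 0.0562, adjusted p 0.0535). In vWAT d0 they read 100.1, 115 and 115 FPKM against 83.6, 94.3 and 96.3 FPKM, a difference of 0.27 (SE 0.0795, adjusted p 0.162). Neither was called. In BAT the siH19 effect was larger at d3 than at d0 by 0.61 (SE 0.142, adjusted p 0.0239), and *Sgk1* was the only member called in this interaction of day and siRNA, against 9.06% of all genes (1058 higher and 172 lower, or 537 and 323 with trimmed-mean scaling). That call was lost with trimmed-mean scaling (0.51, adjusted p 0.0558), with no filter on low values (0.61, adjusted p 0.0522) and when 1 of 5 libraries was left out (BAT siCtrl d0 replicate 1 or 3, BAT siH19 d0 replicate 2 or 3, or BAT siH19 d3 replicate 1, adjusted p 0.0518 to 0.0574).

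*Mt2* read 1054, 1063 and 1010.0 FPKM in BAT siCtrl d3 and 1424, 1284 and 1586 FPKM in BAT siH19 d3. The siH19 libraries all lay higher, with a ratio of mean FPKM of 1.37 and a fitted difference of 0.45 (SE 0.0752, 95% interval 0.27 to 0.63, adjusted p 0.0111). Without BAT siH19 d3 replicate 3, the highest library, the difference was 0.38 (adjusted p 0.0157) and under 1.3-fold. In vWAT d3 *Mt2* differed by -0.11 (95% interval -0.25 to 0.03), and the test of the difference between depots gave 0.56 (SE 0.103, adjusted p 0.00789). In this interaction of depot and siRNA at d3, *Sgk1* and *Mt2* were the 2 genes called of 10, against 10.5% of all genes (966 with a more positive effect in BAT and 485 with a more negative one, or 641 and 760 with trimmed-mean scaling). *Tsc22d3* stood at -0.21 (adjusted p 0.0539) there, and with that scaling it was called (-0.28, adjusted p 0.0157).

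*Mt1*, the neighbour of *Mt2* on the chromosome, was not called. It read 855, 939.6 and 888 FPKM in BAT siCtrl d3 and 930.4, 845 and 996 FPKM in BAT siH19 d3, and the groups overlapped (0.04, 95% interval -0.12 to 0.21). The ratio of *Mt1* to *Mt2* FPKM within a library was 0.811, 0.884 and 0.880 in BAT siCtrl d3 and 0.653, 0.658 and 0.628 in BAT siH19 d3. The 9 libraries of the other d3 groups lay between 0.605 and 0.658, so that BAT siCtrl d3 stood alone in this measure as it did in the *Sgk1* level. The smallest p that an exact permutation test of 3 against 3 libraries can give is 0.1. At d0 the ratio was 0.568 to 0.622 in BAT siCtrl and 0.529 to 0.629 in BAT siH19, and in vWAT it was 0.406 to 0.416 and 0.419 to 0.441. The annotated transcripts of *Mt1* and *Mt2* share no run of 75 bases (0 of the 529 such runs in *Mt2*).

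**Figure D4:**
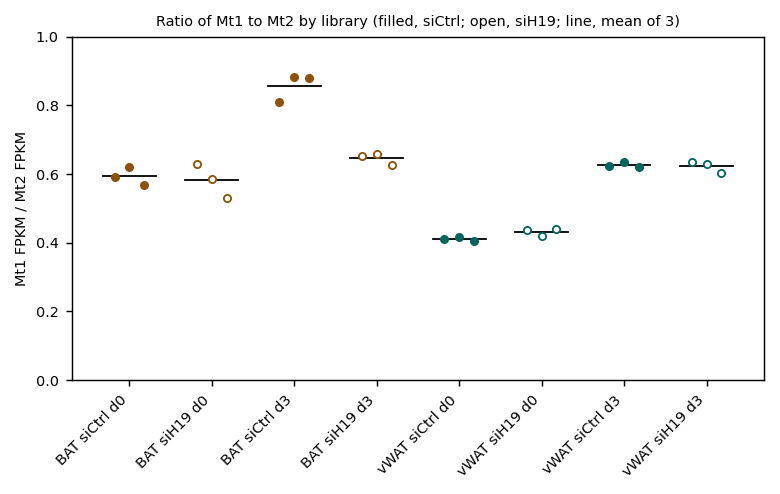
Ratio of *Mt1* to *Mt2* FPKM in each of the 24 libraries, by depot, day and siRNA, with filled points for siCtrl, open points for siH19 and a line at the mean of the 3 libraries. The 3 BAT siCtrl d3 libraries lay between 0.811 and 0.884, above all other libraries (0.406 to 0.658).

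The other members were not called with siH19, and the members with no overlap between their siH19 and siCtrl libraries numbered 5 in BAT d0, 3 in BAT d3, 3 in vWAT d0 and 1 in vWAT d3. Such a lack of overlap was seen in 26.7%, 37.2%, 24.5% and 16.2% of all genes. In BAT d3 the third such gene was *Hsd11b1*, with 10.6, 11.2 and 11.5 FPKM against 9.62, 8.73 and 9.86 FPKM, a difference of 0.22 (SE 0.0742, adjusted p 0.099). In BAT d0 *Fkbp5* (-0.20, adjusted p 0.159), *Tsc22d3* (-0.14, adjusted p 0.292) and *Klf9* (-0.12, adjusted p 0.308) lay below their controls and *Per1* (0.24, adjusted p 0.154) above them, beside *Sgk1*. The siH19 libraries of *Fkbp5* there read 15.9, 15.6 and 14.7 FPKM and those of *Per1* 10.8, 10.4 and 10.1 FPKM.

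In vWAT d0 *Nr3c1* read 35.2, 32.2 and 32.1 FPKM with siH19 against 28.8, 27.9 and 30.2 FPKM, a difference of 0.19 (SE 0.0591, adjusted p 0.176). *Klf9* lay below its control there (-0.11, adjusted p 0.315). In vWAT d3 *Tsc22d3* read 82.8, 80.8 and 78.6 FPKM with siH19 against 74.2, 74.5 and 67.9 FPKM, a difference of 0.16 (SE 0.0489, adjusted p 0.388). These differences failed the correction over all genes. Of the targets that differed most by day, *Fkbp5* stood at d3 at -0.16 (95% interval -0.38 to 0.05) in BAT and -0.04 (-0.18 to 0.09) in vWAT, and *Zbtb16* at -0.03 (-0.19 to 0.12) and -0.02 (-0.20 to 0.16). *Tsc22d3* in BAT d3 stood at -0.05 (-0.15 to 0.05). *Zbtb16* at d0 was not tested, and its libraries read 0.211 to 0.387 FPKM with siH19 in BAT and 0.485 to 0.508 FPKM in vWAT, below the siCtrl libraries given above. The interaction of day and siRNA in vWAT called none of the 10 genes with limma, against 1.73% of all genes. In it 2 of the 10 had an unadjusted p under 0.05, against 1944 of 13948 genes tested. For the same interaction in BAT these numbers were 5 of 10 and 3263 of 13575.

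**Figure D5:**
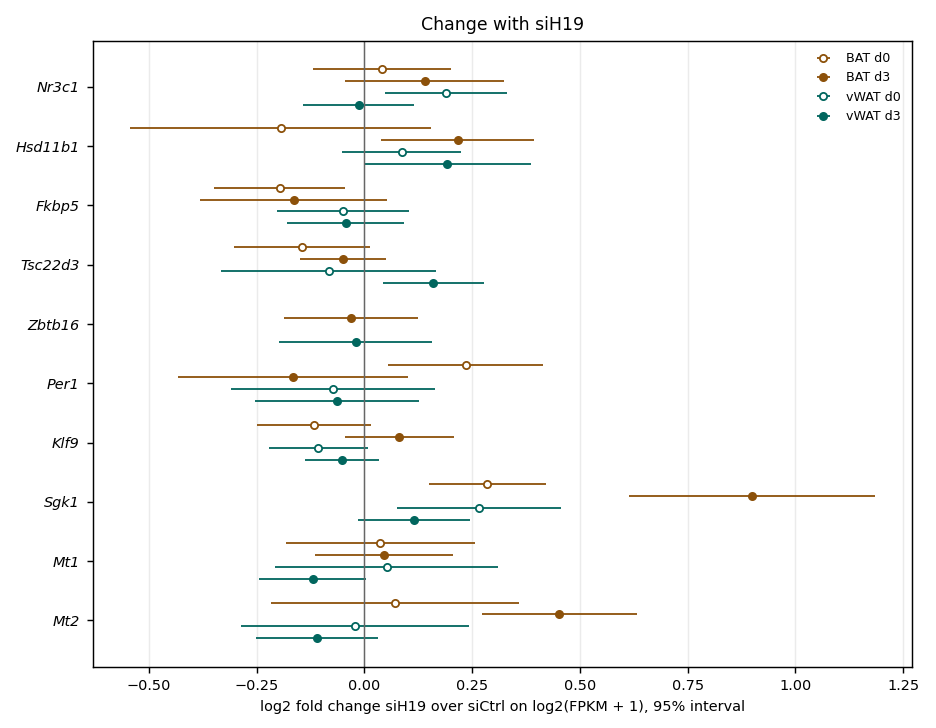
Difference between siH19 and siCtrl on the log2(FPKM + 1) scale for the 10 genes in the 4 settings of depot and day, with points for the fitted value of 6 libraries and bars for the 95% interval (*Zbtb16* at d3 only). *Sgk1* (0.90) and *Mt2* (0.45) in BAT d3 are the 2 called values, and all others lie between -0.20 and 0.29.

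The pathway lists around these genes in BAT d3 are set against the 8.57% of all genes called. With siH19, 7 of the 11 tested inflammatory genes known to be dampened by GR were called higher and none lower, with a median of 0.72 against 0.05 for all genes tested, and the chemokine gene *Ccl7* rose most (1.24). Of the 28 GR-induced genes 4 were higher and 4 lower, with a median of 0.04, and *Gadd45b*, a stress-response gene (0.67), and *Rgs2*, a regulator of G protein signalling (-0.63), were at the ends. With trimmed-mean scaling 2 of these were higher and 4 lower, and 7 of the inflammatory genes were higher. Of the steroid enzymes 1 of 7 was higher (*Akr1c14* 0.69), of the paralogs 2 of 11 (*Tsc22d1* 0.58) and of the metal response genes 1 of 9 (*Hmox1* 0.41, not called with trimmed-mean scaling), whereas 2 of 11 cAMP response genes were lower (*Pck1* -1.09). None of the 14 chaperones, 14 coregulators or 13 clock genes was called with limma.

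Markers of other cells and states moved with siH19 in BAT d3 as well. Precursor and fibroblast markers were higher in 4 of 7 (*Ly6a* 0.85), with summed levels of 3376 to 3631 FPKM against 2729 to 3030 FPKM. Smooth muscle and pericyte markers were higher in 3 of 4 tested (*Cnn1* 1.21), with 576 to 701 FPKM against 258 to 353 FPKM. Brown adipocyte markers were lower in 4 of 6 (*Cidea* -1.95), with 299 to 354 FPKM against 503 to 556 FPKM, and macrophage markers in 3 of 5 (*C1qa* -1.06), with 82.9 to 94.9 FPKM against 135 to 166 FPKM. Of the 4 tested skeletal muscle markers *Des* was higher (0.44). The 7 adipocyte markers were not called (limma), with 31013 to 33300 FPKM against 34070 to 35587 FPKM. Whether these shifts take part in the *Sgk1* and *Mt2* levels was not tested.

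In the other settings the list genes called with siH19 are read against the share of all genes called. That share was 1.94% in BAT d0, 1.53% in vWAT d0 and 0.0305% in vWAT d3. In BAT d0 these were 1 GR-induced gene higher and 2 lower (the AMP deaminase gene *Ampd3* 0.43, *Lpin1* -0.65), 1 inflammatory gene higher and 1 lower (*Ptgs2* 0.83, *Cxcl12* -0.93), and 1 gene higher in each of the steroid (*Akr1c18* 0.87), metal (*Hmox1* 0.58), cAMP (*Nr4a1* 0.63) and clock (*Bhlhe40* 0.54) lists. In vWAT d0 only *Cebpd*, an adipogenic transcription factor gene (0.48), and *Cish*, an inhibitor of cytokine signalling (-0.53), were called. In vWAT d3 no gene of these lists was called with limma, and 17 of the 136 listed genes, tested or not, had an unadjusted p under 0.05. Adipocyte markers were lower with siH19 at d0, in 6 of 7 in BAT (1227 to 1682 FPKM against 2659 to 2870 FPKM) and in 7 of 7 in vWAT (1962 to 2238 FPKM against 3503 to 3541 FPKM).

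The genes whose pattern over the 8 group means was most like each member's were found by Pearson r on the log2(FPKM + 1) scale among 7954 genes, as a description without a test, and the points share libraries, days and depots. For *Nr3c1* these were *Slc25a13* (0.995), *Jund* (0.987) and *Btg3* (0.981), and for *Hsd11b1* they were *Slamf8* (0.994), *Fhad1* (0.990) and *Cxcl1* (0.987). The nearest genes were *Fdps* (0.996), *Fuk* (0.995) and *Usp35* (0.994) for *Fkbp5*, *Lamtor2* (0.998), *Chchd5* (0.998) and *Suox* (0.996) for *Tsc22d3*, and *Acot5* (0.999), *Cby1* (0.998) and *Mc2r* (0.998) for *Zbtb16*. For *Per1* they were *Dnaaf3* (0.991), *Ctla2b* (0.987) and *Rab40b* (0.986), for *Klf9* *Trim24* (0.997), *Sfxn2* (0.992) and *Gins4* (0.992), and for *Sgk1* *Cmtm7* (0.995), *Cacfd1* (0.993) and *Cald1* (0.992). *Mt1* was nearest to *Enpp5* (0.997), *Etfbkmt* (0.993) and *Abca3* (0.992), and *Mt2* to *Hoxa9* (0.990), *Lag3* (0.988) and *H6pd* (0.987), the last of which supplies the cofactor of the *Hsd11b1* enzyme. Some of these genes had group means near or under 1 FPKM throughout. The means ran from 0.0316 to 1.37 FPKM for *Slamf8* and from 0 to 1.06 FPKM for *Fhad1*. For *Dnaaf3* they were 0.127 to 1.05 FPKM and for *Lag3* 0.307 to 1.27 FPKM. Among the members themselves r was 0.980 for *Fkbp5* and *Zbtb16*, 0.977 for *Mt1* and *Mt2* and 0.949 for *Per1* and *Klf9*. It was -0.935 for *Tsc22d3* and *Sgk1* and -0.969 for *Nr3c1* and *Fkbp5*.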

How the data were processed

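The deposited table holds FPKM per gene and library, already normalized to transcript length and library size. Per the study's methods the authors aligned reads to GRCm38 with TopHat2 and estimated FPKM with Cufflinks under Ensembl annotation, and the submitters' processing notes name TopHat2 2.0.10, Cufflinks 2.2.1 and GRCm38.p5. The table does not name its unit, FPKM was taken from the methods, and the read layout is given differently by labels and methods. FPKM carry no read counts, so no count test was used and depth is known only in relative terms. Group and library columns were taken from the labels, and 0 columns of samples were left out.

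From these values, limma 3.58.1 in R 4.3.3 (linear model, eBayes with trend) was fitted on log2(FPKM + 1), on the libraries of each comparison alone (6, or 12 for interactions) and on genes that reached 1 FPKM in 3 or more of those libraries. Calls required an adjusted p (Benjamini-Hochberg, over all genes tested) under 0.05 and a difference of at least 1.3-fold, with no minimum fold for interactions. The fits were checked on simulated data. An interaction is the BAT effect minus the vWAT effect (depot), or the d3 effect minus the d0 effect (day). Named are all 10 members, *H19*, for each list the called gene with the largest rise and fall, and for each member the 3 named genes with the highest r over group means (mean FPKM of at least 1 in some group, SD of at least 0.3). Members and lists were chosen with earlier results of these data known. *Ftl1* of the metal response list was not in the table. A few list genes that the naming rule picked are not reported here. Alternatives were log2(FPKM + 0.1), no filter, trimmed-mean scaling, all 24 libraries in 1 fit, a replicate block, each library left out, and no minimum fold. Gene positions (GRCm38) are those of the table's annotation, and figures were drawn with matplotlib 3.10.9.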

Additional observations from a re-analysis of the deposited data

Results flagged for a closer look

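The effects below differed between depots or days by an interaction term of limma on log2(FPKM + 1), at an adjusted p under 0.05 over all genes tested. The siH19 effect at d3 was more positive in BAT than in vWAT for *Sgk1*, by 0.78 (adjusted p 0.007), and for *Mt2*, by 0.56 (adjusted p 0.00789). In BAT the siH19 effect on *Sgk1* was more positive at d3 than at d0 by 0.61 (adjusted p 0.0239), a call that held in 10 of 17 alternatives, and in the others, trimmed-mean scaling among them, gave way to an adjusted p of 0.0518 to 0.0574. The d3 effect in siCtrl cells was more positive in BAT than in vWAT for *Mt1*, by 1.47, for *Mt2*, by 1.55, and for *Hsd11b1*, which fell less in BAT, by 0.59. It was more negative in BAT for *Sgk1* (-0.89), *Fkbp5* (-0.74), *Klf9* (-0.45) and *Tsc22d3* (-0.32, and -0.18 with an adjusted p of 0.0983 under trimmed-mean scaling). The BAT siCtrl d3 libraries enter all 10 of these differences, so that they are not independent of each other. BAT and vWAT cells at d3 also differed in medium, which cannot be told apart from depot.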

How the results depend on the processing

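None of the called differences of the 10 genes changed sign under these alternatives. The count of members called moved by over 1.5 times in 2 comparisons. For the interaction of day and siRNA in BAT it went from 1 to 0 with no filter, to 0 with trimmed-mean scaling and to 2 with all 24 libraries in 1 fit, where *Klf9* was added (0.20, adjusted p 0.031), and it ranged from 0 to 1 when 1 library was left out. *Hsd11b1* was called there (0.55, adjusted p 0.0357) without BAT siH19 d0 replicate 2. For siH19 against siCtrl in BAT d3 it ranged from 1 to 2, since *Mt2* fell under 1.3-fold without BAT siH19 d3 replicate 3. With 1 library left out, the other counts ranged from 8 to 10 (d3 against d0, BAT siCtrl), 6 to 7 (BAT siH19), 9 to 10 (vWAT siH19), 4 to 5 (BAT against vWAT, d0) and 7 to 8 (depot and day, *Per1* being added at -0.35 without BAT siCtrl d3 replicate 1), and did not move elsewhere. *Zbtb16*, low at d0, left the d3 against d0 tests of BAT and of vWAT siH19 cells when 1 d3 library was left out, because it then no longer passed the filter. Causes were not tested otherwise. The replicate block kept the counts of all 14 comparisons (2 in BAT d3), while over all genes with siH19 it left 615 higher and 244 lower in BAT d3, 0 and 2 in BAT d0, 1 and 1 in vWAT d0 and 0 and 0 in vWAT d3. Same-numbered libraries did not deviate together (r -0.11 to 0.06). Such values cannot show whether they came from the same preparation of cells. With no minimum fold, 5 further differences of the members were called, and the share of all genes called under that looser rule was not taken. Precision is limited by 3 libraries a group, and by values near 1 FPKM for *Zbtb16*.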
